A study of Rattus norvegicus with 8 samples.

Results

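The nuclei described here carried transcripts of the angiotensin receptor gene Agtr1a together with at least 1 of 4 genes, Hmcn1, Ntrk3, Klhl1 and Grin2a, in single-nucleus RNA sequencing of rat nodose ganglia. They were chosen by raw counts of unique molecular identifiers (UMIs): at least 1 UMI of Agtr1a, at least 1 UMI of 1 or more of the 4 partner genes, and 0 UMIs of Pdgfrb and Notch3, which mark the mural cells of blood vessels. This rule selected 374 of 36741 nuclei, or 1.02%. Because the 7 genes of the rule fixed the selection, their values are given as a description and were not tested. All rats were untreated Long Evans rats of 8 weeks of age, 18 male and 18 female. Each pool joined the left or the right ganglia of 6 rats, and there were 3 pools for each combination of labelled sex and side: male left (ML1 to ML3), male right (MR1 to MR3), female left (FL1 to FL3) and female right (FR1 to FR3). By these numbers the left and right pools of a sex drew on the same 18 rats, so they are not independent animals. The pools carried no allele or agent that differed between them.

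The nodose ganglion holds the cell bodies of most sensory neurons of the vagus nerve, which report stretch, pressure and chemical signals from the heart, vessels, lungs and gut to the brainstem. Agtr1a encodes the angiotensin II type 1a receptor, a G protein-coupled receptor that acts mainly through Gq and phospholipase C and is known on vagal afferents and on vascular smooth muscle. Ntrk3 encodes TrkC, the receptor of neurotrophin-3, Klhl1 an actin-binding protein of the kelch family, Grin2a an NMDA receptor subunit, and Hmcn1 the extracellular matrix protein hemicentin-1.

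The pools had a median of 2163 (MR3) to 3627 (FL1) UMIs per nucleus. Summed counts of 4 Y-linked genes (Usp9y, Eif2s3y, Kdm5d, Ddx3y) went against the sex label in 2 pools: 2.88 CPM in ML1 (UMIs of a gene scaled to the pool's total UMIs, the usual CPM unit), against 84.4 to 91.3 in the other male-labelled pools, and 88.6 CPM in FL1, against 2.73 to 3.95 in the other female-labelled pools. Sex is therefore written as labelled, and each comparison of sex is also given without both pools. Triplets of barcode wells recurred in more than 1 sublibrary for 1865 triplets and 3808 nuclei, and nuclei were kept apart by sublibrary.

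The 374 nuclei sat close to the limit of detection. They held 478 Agtr1a UMIs in all; 291 nuclei had 1 Agtr1a UMI, 83 had 2 or more, and the highest count was 5. Ntrk3 was detected in 262 of them, Hmcn1 in 238, Grin2a in 169 and Klhl1 in 134. A single partner gene was present in 152 nuclei, 2 in 79, 3 in 79 and all 4 in 64. The nuclei were deeper than the rest, with a median of 4843 UMIs against 2680 over all nuclei, and a rule of detection favours deep nuclei. Just inside the rule were 93 nuclei with 1 Agtr1a UMI and 1 partner UMI, of median depth 4266. Just outside were 285 nuclei with Agtr1a and neither a partner nor an excluded gene (median 2813 UMIs), and 787 nuclei with 3 or 4 partner genes and no Agtr1a UMI (median 6647 UMIs). A further 127 nuclei had Agtr1a and a partner gene but also a Pdgfrb or Notch3 UMI.

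Promoter sequences of genes that turn up below are shown first, since they give the letters before the start sites of the receptor gene that defines the selection and of 3 genes whose levels were high beside it. They come from RefSeq on build GRCr8 and run over the 250 bases before the annotated start, 5′ to 3′ on the strand of the gene. Letters in capitals mark matches, on either strand, to the RUNX core TGTGGT, to the T-box motif GGTGTG or to the TATA motif TATAAA. These are Agtr1a (the receptor, chr17:34435433-34435682, minus strand), Avpr1a (the vasopressin V1a receptor, chr7:59999493-59999742, plus strand), Glp1r (the receptor of glucagon-like peptide-1, chr20:8973143-8973392, plus strand) and Runx2 (a runt-domain transcription factor, its upstream start of 2 listed, chr9:23664808-23665057, plus strand).
Agtr1a: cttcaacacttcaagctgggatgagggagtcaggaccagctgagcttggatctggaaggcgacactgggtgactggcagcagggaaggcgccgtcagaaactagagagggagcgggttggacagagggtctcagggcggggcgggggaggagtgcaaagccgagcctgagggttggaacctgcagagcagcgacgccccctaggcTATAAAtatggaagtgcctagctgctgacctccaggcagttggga
Avpr1a: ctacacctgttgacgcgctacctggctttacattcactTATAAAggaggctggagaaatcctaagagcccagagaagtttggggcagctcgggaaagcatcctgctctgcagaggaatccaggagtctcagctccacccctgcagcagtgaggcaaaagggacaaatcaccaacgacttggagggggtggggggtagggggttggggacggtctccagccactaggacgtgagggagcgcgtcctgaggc
Glp1r: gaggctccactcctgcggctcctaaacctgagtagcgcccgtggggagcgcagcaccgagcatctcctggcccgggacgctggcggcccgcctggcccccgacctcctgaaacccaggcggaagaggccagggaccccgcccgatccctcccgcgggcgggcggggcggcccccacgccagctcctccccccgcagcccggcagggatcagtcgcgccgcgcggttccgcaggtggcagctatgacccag
Runx2: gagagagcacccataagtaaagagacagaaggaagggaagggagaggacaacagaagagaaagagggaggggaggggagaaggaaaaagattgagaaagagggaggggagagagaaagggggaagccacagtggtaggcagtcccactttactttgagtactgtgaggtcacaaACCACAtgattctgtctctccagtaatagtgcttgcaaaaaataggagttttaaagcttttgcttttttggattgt
Agtr1a held TATAAA from position -45 relative to its start, Avpr1a from position -212, and Runx2 held the RUNX core from position -76, read as ACCACA. Glp1r held none of the 3 motifs in this window, and neither did the window of the other listed Runx2 start. Over 33469 rat promoter windows of the same length, 12.9% held TATAAA, 14.5% the RUNX core and 15.4% the T-box motif on either strand. The matches describe these letters only.

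The selected nuclei did not fall in clusters of 1 kind. The nuclei were clustered without the 7 genes of the rule, and clusters were named from marker genes: 236 of the 374 (63.1%) fell in neuron-like clusters, 33 (8.82%) in satellite glia-like, 8 in myelinating Schwann-like, 7 in mural-like, 3 in endothelial-like and 2 in skeletal muscle-like clusters, and 85 (22.7%) in clusters that stayed unnamed. In 1 neuron cluster lay 154 of them, 41.2% of the selection, against 1.66% of all other neuron-like nuclei. Per pool the share in that cluster ran from 23.9% (FR2) to 58.1% (ML1), with a mean of 42.7% ± 11.97 (SD, n = 12 pools). The cluster held 551 nuclei, and Ntrk3, Hmcn1, Agtr1a, Klhl1 and Grin2a were its 5 leading genes. None of them had entered the clustering. The cluster was, however, picked for holding the most selected nuclei, so its rank in these genes rests partly on that choice. This cluster is called the Agtr1a-Ntrk3 neuron cluster below, a neuron-like cluster by its markers. The remaining selected nuclei lay in other clusters, so the selection is called the selected nuclei and not a neuron type.

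The number of partner genes tracked where a nucleus fell. This is a description, since the cluster was picked for holding the most nuclei selected on these genes, and they lead it. Depth differed too, with a median of 4394 UMIs in nuclei with 1 partner gene, 4074 with 2, 5284 with 3 and 7185.5 with 4. Of nuclei with 1 partner gene, 10 of 152 lay in the Agtr1a-Ntrk3 neuron cluster, of those with 2, 40 of 79, with 3, 59 of 79, and with all 4, 45 of 64. The share also differed by partner: of the 59 nuclei with Hmcn1 alone 2 lay in the cluster, of the 55 with Ntrk3 alone 6, and of the 16 with Klhl1 alone 0. Of the 40 with Hmcn1 and Ntrk3 together 23 did. Requiring 2 partner genes raised the share to 64.9% (144 of 222), and requiring 2 Agtr1a UMIs to 60.2% (50 of 83). Of the 93 nuclei just inside the rule, 4 were in the cluster, and of the 285 just outside it, 1. Of the 787 nuclei with 3 or 4 partners and no Agtr1a UMI, 218 were in it.

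**Figure D1:**
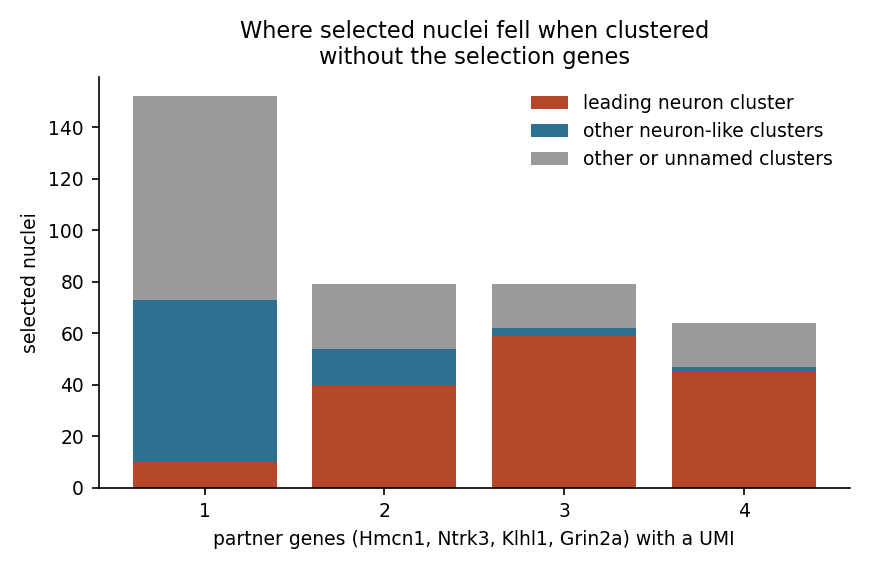
Selected nuclei (y axis, count) by how many of the 4 partner genes they held (x axis), divided by cluster. With 1 partner gene 10 of 152 nuclei lay in the Agtr1a-Ntrk3 neuron cluster (the leading neuron cluster of the key), with 3 partner genes 59 of 79. That cluster was picked for holding the most selected nuclei and is led by the partner genes and Agtr1a.

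Agtr1a was highest in that cluster, which was picked for holding the most selected nuclei, each with an Agtr1a UMI. The rank is therefore a description of Agtr1a. Its level there was 110.9 ± 32.1 CPM (SD, n = 12 pools; 65.2 to 155.6), and 168 of 551 nuclei, 30.5%, had a UMI of it (95% exact binomial interval 26.7 to 34.5%). After thinning each nucleus to 1500 UMIs the share was 19.0%. Detection rose with depth within the cluster: 11.6% in the shallowest of 4 equal groups of nuclei (median 1214 UMIs), 28.3%, 29.9% and 52.2% in the deepest (median 6949 UMIs). Next came an unnamed cluster led by Ddc, Dcc, Dlgap2, Gata3 and Slc6a2, at 63.5 ± 37.1 CPM (13.7 to 149.95). Its range overlapped that of the Agtr1a-Ntrk3 cluster, and of its leading genes Ddc, Gata3 and Slc6a2 are genes of catecholamine-type cells. Mural-like nuclei followed at 45.7 ± 20.8 CPM, with 9.47% of nuclei positive, and an unnamed cluster led by Tyrp1, Th and Apoe at 20.2 ± 8.39 CPM. Satellite glia-like nuclei had 4.96 ± 1.63 CPM and 2.01% positive nuclei at a median depth of 2923 UMIs, and myelinating Schwann-like nuclei 4.44 ± 2.74 CPM and 0.889% at 1545 UMIs. After thinning to 1500 UMIs the shares were 0.805% in satellite glia-like and 0.7% in myelinating Schwann-like nuclei, below the 19.0% of the Agtr1a-Ntrk3 cluster. The source of Agtr1a UMIs in glia-like nuclei was not tested. Intervals cover counting error only.

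**Figure D2:**
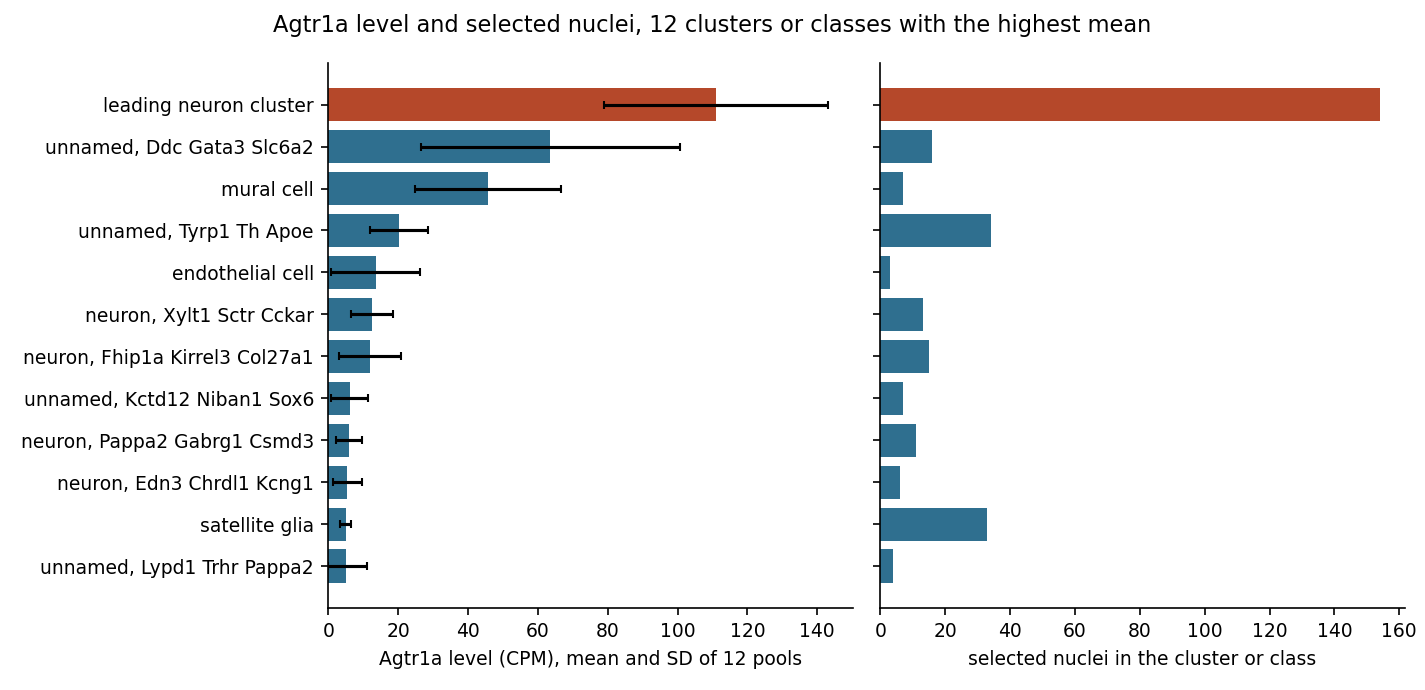
Left, Agtr1a level (x axis, CPM, mean and SD of 12 pools) and right, selected nuclei (x axis, count) in the 12 clusters or classes (y axis) with the highest mean. The leading neuron cluster is at 110.9 CPM with 154 selected nuclei, while satellite glia-like nuclei hold 33 selected nuclei at 4.96 CPM.

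The 4 partner genes also had their highest cluster means there. Ntrk3 was at 1228 ± 146 CPM in the cluster (n = 12 pools), Hmcn1 at 528 ± 103, Klhl1 at 336 ± 68.7 and Grin2a at 316 ± 63.4. The neuron-like cluster next in order, another one for each gene, had 569 CPM of Ntrk3, 124 of Hmcn1, 68.9 of Klhl1 and 167 of Grin2a. Outside neurons the partners were not at 0: satellite glia-like nuclei had 168 ± 22.2 CPM of Hmcn1 and 42.7% of them held a UMI of it, and myelinating Schwann-like nuclei had 359 ± 39.8 CPM of Ntrk3. CPM are not scaled to gene length, so genes are not ranked against each other.

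Within the Agtr1a-Ntrk3 cluster, the 154 selected nuclei and the 397 others had close levels of Ntrk3 and Hmcn1 when all pools were summed. Ntrk3 was at 1232 CPM in the selected and 1218 in the others, and Hmcn1 at 542 and 540.2. Klhl1 was at 266 and 385. Cntn3, a contactin cell adhesion molecule that the rule did not use, was at 443 and 442. Runx2 was at 188 and 121 CPM, Glp1r at 241 and 154, and Penk, the precursor of enkephalins, at 84.7 and 37.2. These sums have no spread over pools and were not tested, and the selected nuclei were deeper, with a median of 4017 against 2582 UMIs.

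The first comparison set the selected nuclei against the other 23951 neuron-like nuclei of the same pools, over genes the rule did not use. UMIs were summed per pool, and levels below are CPM of those sums; the selected sums held 69279 (ML2) to 481820 (FR3) UMIs. Of 11212 genes tested, 1195 (10.7%) were higher and 1610 (14.4%) lower in the selected nuclei at an adjusted p under 0.05 (edgeR quasi-likelihood test, pool as block). The division into higher and lower calls turned with the scaling: 1298 higher and 1008 lower with DESeq2, and 1491 and 1164 with edgeR on RLE size factors. Outside neuron-like clusters lay 138 selected nuclei, of which 93.5% held a UMI of the neuron marker Snap25 and 81.9% one of Apoe. Their Snap25 level was 1331 CPM, against 1672 in unselected neuron-like nuclei outside the Agtr1a-Ntrk3 cluster. Of those unselected nuclei 92.9% held a Snap25 UMI, at a median depth of 2945 UMIs against 5374 in the 138. Snap25 is 1 of 9 neuron markers. With all selected nuclei 1 of the 9 (Nefl) was higher, 2 (Rbfox3 and Elavl4) were lower and 6 were not called. Which cells these nuclei came from was not tested. The comparison was repeated with the 236 selected nuclei of neuron-like clusters alone, where 474 of 10950 genes (4.33%) were higher and 1133 (10.3%) lower. In both, 1304 genes were called in the same direction, 386 higher and 918 lower. With both populations held to the interquartile depth of the selected nuclei, 921 of these were called again in that direction.

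The transcription factors Tbx2 and Runx2 and the receptor gene Glp1r were among the genes that were higher with and without the nuclei outside neuron-like clusters. Tbx2, a T-box transcription factor, ranged over pools from 9.68 to 81.6 CPM with a median of 44.5 in the selected nuclei, and from 2.95 to 5.93 with a median of 4.65 in the others. The pools of the 2 populations did not overlap. Its log2 fold change was 3.09 ± 0.24 (SE, n = 12 pools, edgeR adjusted p = 1.91e-18), and 3.20 in neuron-like clusters alone. Runx2 had a lowest, median and highest pool of 43.3, 87.6 and 196 CPM in the selected and 10.6, 13.6 and 17.7 in the other nuclei, again without overlap. It rose by 2.70 ± 0.17 (log2, edgeR adjusted p = 2.27e-22) with all selected nuclei and by 3.12 in neuron-like clusters. Glp1r, whose product senses the gut hormone glucagon-like peptide-1, had 66.6, 144 and 218 CPM against 14, 28.7 and 34.3, with no overlap. Its log2 fold change was 2.15 ± 0.14 (edgeR adjusted p = 1.69e-22) and 2.47 in neuron-like clusters.

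By place, Runx2 was at 188 CPM in selected nuclei of the Agtr1a-Ntrk3 cluster and 23.3 in those of other neuron-like clusters. In unselected neuron-like nuclei it was at 121 CPM within the Agtr1a-Ntrk3 cluster and 11.7 outside it. Glp1r was at 241 and 56.4 CPM in the same 2 places of selected nuclei, and at 154 and 24.8 in the unselected. Tbx2 was at 71.2 and 7.78 CPM in the selected nuclei of these places, and at 48 and 3.96 in the unselected. Selected nuclei outside neuron-like clusters had 46.8 CPM of Runx2, 90.4 of Glp1r and 39.4 of Tbx2. Nuclei of the Agtr1a-Ntrk3 cluster gave 153 of the 209 Runx2 UMIs of the selection, 58 of 99 of Tbx2 and 196 of 310 of Glp1r. Penk and Avpr1a were too low for the filter on low counts. Penk was at 0, 24.6 and 83 CPM (lowest, median and highest pool) in the selected nuclei and 0.205, 0.75 and 5.14 in the others, and the pools overlapped. Avpr1a was at 0, 32.8 and 72.6 and 0.821, 1.71 and 3.31 CPM, also with overlap. Without the filter, edgeR gave log2 fold changes of 4.50 ± 0.33 for Penk (adjusted p = 5.19e-24) and 4.08 ± 0.27 for Avpr1a (adjusted p = 1.25e-27).

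**Figure D3:**
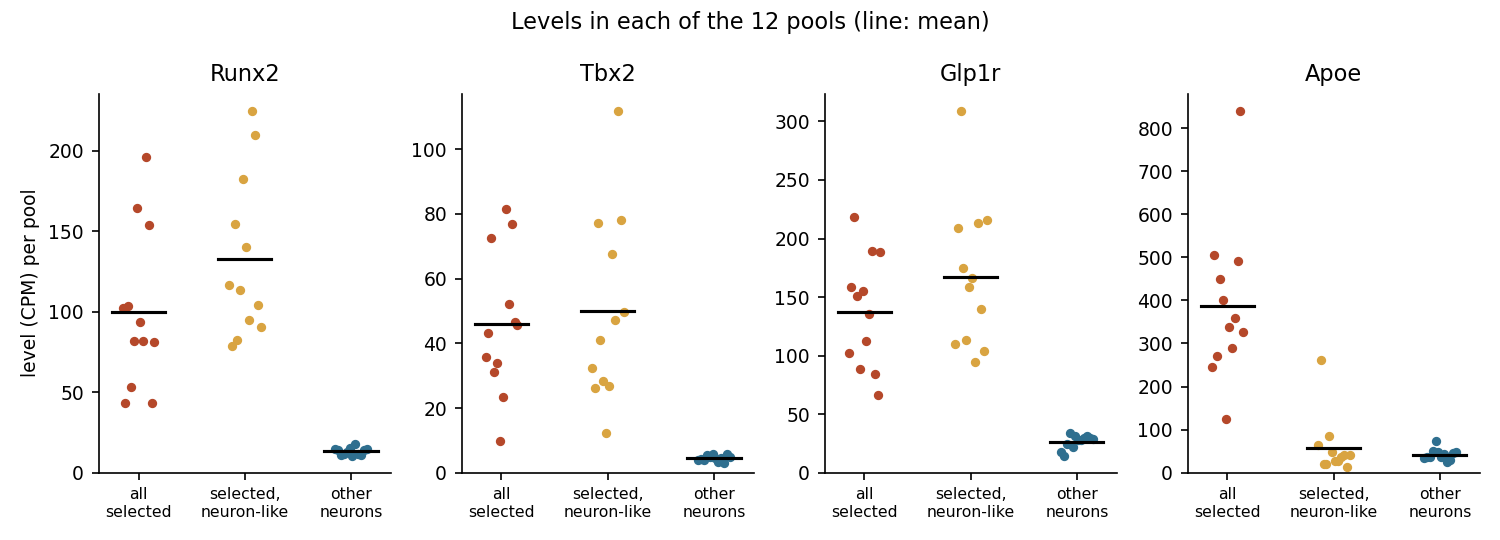
Levels of Runx2, Tbx2, Glp1r and Apoe (y axis, CPM) in each of the 12 pools, for all selected nuclei, for those in neuron-like clusters and for other neuron-like nuclei; lines are means. Apoe falls to the level of the other neurons once nuclei outside neuron-like clusters are left out, while the other 3 genes stay above it.

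By the rule for naming genes, the 14 largest increases over all selected nuclei were Tyrp1, Tbx2, Apoe, Kcnj10, Runx2, Kctd12, Mmp14, Mmd2, Jag1, Sparc, Ttyh1, Efemp1, Slitrk2 and Fbln2. Only Tbx2, Runx2 and Kctd12 were still called in neuron-like clusters. Apoe, the lipid carrier of glia, had 126, 349 and 839 CPM in the selected nuclei and 25.3, 40.4 and 72.7 in the others, and its log2 fold change of 3.04 ± 0.12 (edgeR adjusted p = 1.85e-34) was 0.01 in neuron-like clusters (adjusted p = 0.988). Kcnj10, the Kir4.1 potassium channel of satellite glia, went from 2.86 to 0.61 (adjusted p = 0.425). Tyrp1 went from 3.17 to -0.45 (adjusted p = 0.545). Apoe was at 921 CPM in selected nuclei outside neuron-like clusters and 56.5 in those of the Agtr1a-Ntrk3 cluster. The 6 satellite glia markers summed to 203 to 1032 CPM over pools in all selected nuclei, 27.1 to 366 in those of neuron-like clusters and 46.8 to 105 in other neuron-like nuclei; Fabp7 was at 0 in the selected neuron-like nuclei. All 4 satellite glia markers tested and all 4 myelinating Schwann markers tested were higher with all selected nuclei, against 10.7% of all genes tested. In neuron-like clusters 1 (Glul) and 0 were, against 4.33%. With all selected nuclei 3 of 3 fibroblast and 2 of 2 perineurial markers tested were also higher, and 0 of either in neuron-like clusters. Of the endothelial and skeletal muscle markers 0 of 3 each were higher. The same marker lists had served to name the clusters.

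**Figure D4:**
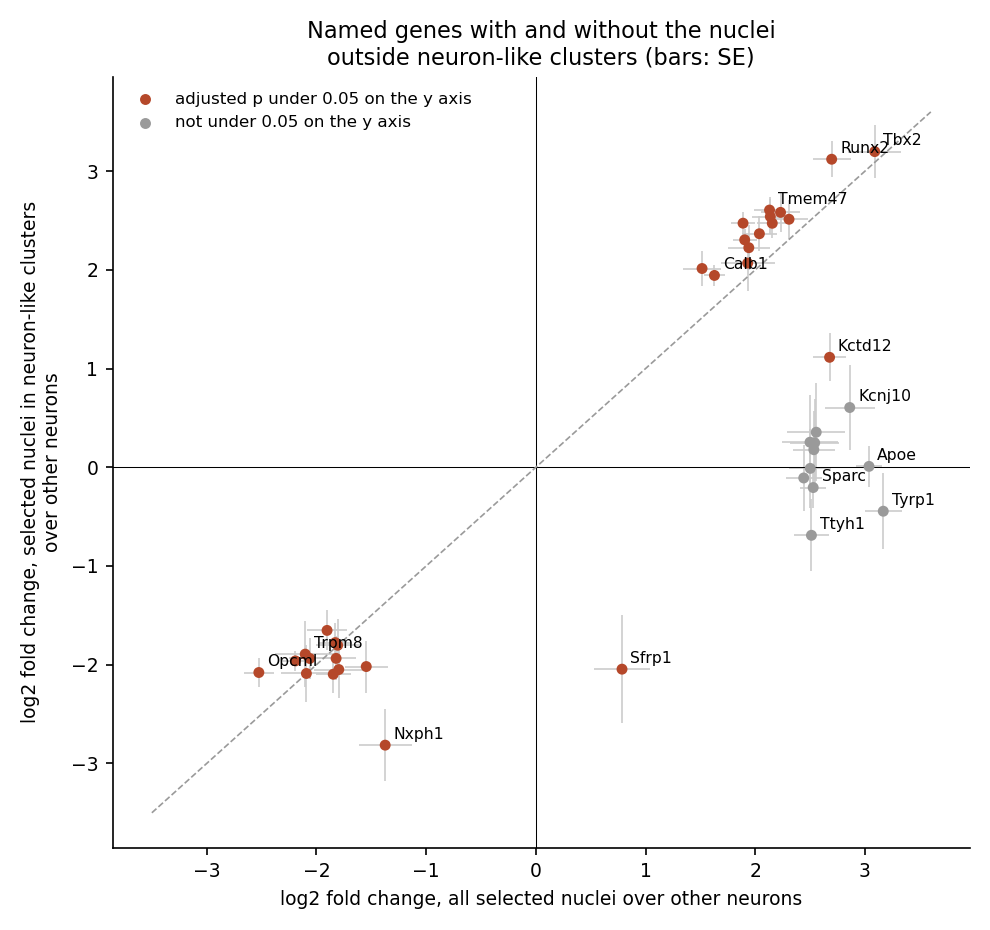
Log2 fold changes over other neurons of the named genes, with all selected nuclei (x axis) and with those in neuron-like clusters (y axis), bars SE. Tbx2 and Runx2 stay near the diagonal while Apoe and Tyrp1, at 3.04 and 3.17 on the x axis, lie at 0.01 and -0.45 on the y axis.

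The same naming rule was then applied to neuron-like clusters alone, a choice made after these values were seen. Its 14 largest increases were Tbx2, Runx2, Tmem47, Nckap5, Adcy8, Caln1, Cntn3, Glp1r, Lrrc55, Chn2, Pcsk6, Mab21l2, Vgf and Calb1, and all 14 were also called with every selected nucleus. Log2 fold changes ran from 1.94 (Calb1) to 3.20 (Tbx2), and each was higher in 12 of 12 pools when all selected nuclei were summed. Adcy8, a calcium-stimulated adenylyl cyclase, had 36.6, 101 and 169.7 CPM (lowest, median, highest pool) against 10.5, 18.9 and 25.9, a log2 fold change of 2.14 ± 0.17. Cntn3 had 134, 244 and 300.3 against 35.1, 55.3 and 64.9 CPM, and its log2 fold change of 1.89 ± 0.11 became 2.47 in neuron-like clusters. Lrrc55, an auxiliary subunit of BK potassium channels, had 31.2, 96.5 and 188 against 17, 20.5 and 24.1 CPM. None of these 3 genes had overlapping pools. Vgf, a neuropeptide precursor, averaged 70.9 ± 29.3 against 23.5 ± 5.09 CPM, and Pcsk6, a proprotein convertase, 55.7 ± 21.1 against 12.1 ± 2.1 (SD, n = 12 pools). Calb1, the calcium buffer calbindin, averaged 238 ± 64.2 against 68.8 ± 13.2 CPM.

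Adhesion molecules, channels and receptors were among the genes lower in the selected nuclei. The 10 largest decreases by the rule were Opcml, Col6a5, Trpm8, Syt6, Itgae, Adamts16, Slc44a5, Tnr, Chrm2 and Ednra, and all 10 were also lower in neuron-like clusters alone. Opcml, a neuronal adhesion molecule, had 6.66, 37.9 and 143 CPM in the selected against 119.8, 239 and 377 in the other nuclei, with overlapping pools, and fell by 2.52 ± 0.14 on the log2 scale (edgeR adjusted p = 2.48e-26). Col6a5, a collagen VI chain, had 69.1, 213 and 764 against 747, 1031 and 1408 CPM and was lower in 12 of 12 pools, though the highest selected pool reached the range of the others. Trpm8, the cold and menthol channel, averaged 8.43 ± 7.33 against 35.5 ± 21.9 CPM and Chrm2, the muscarinic M2 receptor, 24.7 ± 18.2 against 81.4 ± 12.8. Ednra, the endothelin A receptor, averaged 16.6 ± 8.48 against 55.4 ± 5.49 CPM (log2 fold change -1.81 ± 0.20). In neuron-like clusters Nxph1, Gna14, Sfrp1 and Kcnj12 joined the 10 most lowered. Sfrp1, a secreted Wnt antagonist, turned from 0.79 with all selected nuclei to -2.05, on 5 UMIs in the selected nuclei of neuron-like clusters.

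The ligand gene of the angiotensin system and its other receptors with a value given here were at or near 0. Of its 20 genes, 9 were tested beside Agtr1a. Agtr1b, the other type 1 receptor, had 2 UMIs in all selected nuclei, Mas1 1 and Agt, angiotensinogen, 1, and Ace had 3. Mme, neprilysin, and Plcb4 were higher with all selected nuclei, and neither was called in neuron-like clusters (Plcb4 0.35, then -0.02). Gnaq, the G protein alpha subunit coupled to the receptor, averaged 430.0 ± 46.5 CPM against 698 ± 52.3 and fell by 0.84 ± 0.07 (log2, edgeR adjusted p = 1.07e-16). Plcb1, the phospholipase C downstream of it, averaged 299 ± 74.7 against 651 ± 50.8 CPM and fell by 1.28 ± 0.09. Both were lower in 12 of 12 pools, and both remained called in each of the 23 alternatives tried. Arrb1, beta-arrestin 1, was called higher in neuron-like clusters only (0.38, against 0.21 with all selected nuclei), and that difference between fits was not tested. The median log2 fold change of the 9 was 0.17, against -0.04 over all genes tested.

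Most tested genes of unmyelinated C-fibres were lower. Of 11 tested, 7 were lower and 1 higher with all selected nuclei, and the same 8 in neuron-like clusters. Over all genes tested 14.4% were lower and 10.7% higher, and 10.3% and 4.33% in neuron-like clusters. The medians of the 11 were -1.10 and -0.95, against -0.04 and -0.11 over all genes. Scn10a, the Nav1.8 sodium channel, had 192, 416 and 919 CPM against 1104, 1296 and 1379 (lowest, median and highest pool), which did not overlap. It fell by 1.68 ± 0.09 on the log2 scale (edgeR adjusted p = 2.48e-26). Scn11a, Nav1.9, averaged 135 ± 45.8 against 296 ± 51.8 CPM, and Trpa1, the irritant receptor, 142 ± 70.5 against 356 ± 38.2. Trpv1, the capsaicin receptor, averaged 40.3 ± 19.4 against 85.5 ± 9.12. P2rx3, an ATP-gated channel of visceral afferents, was the exception: 409, 563 and 779 CPM against 204, 254 and 295, with no overlap, and a log2 fold change of 0.98 ± 0.07 (edgeR adjusted p = 5.60e-19).

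Of 13 neurofilament and A-fibre genes tested, 3 were higher and 4 lower in both fits, against 10.7% and 14.4% of all genes tested, and 4.33% and 10.3% in neuron-like clusters. Scn1a, the Nav1.1 channel, averaged 271 ± 87.8 against 134 ± 16.6 CPM with a log2 fold change of 0.84 ± 0.09, Calb1 is given above, and Nefl, the light neurofilament, rose by 0.23. Nefh, the heavy neurofilament, was at 482 ± 97.8 against 416 ± 59.1 CPM and was not called (edgeR adjusted p = 0.605). Scn8a, Kcna1, Kcnab2 and Cntnap2, genes of the node and its flanks, were lower, Scn8a by 0.93 ± 0.10. Nefl lost its call under 6 of 23 alternatives. Scn1a lost it without the Agtr1a-Ntrk3 cluster (0.12, edgeR adjusted p = 0.574) and was at 0.25 against neurons with partner genes and no Agtr1a UMI (adjusted p = 0.047).

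Of 15 genes of mechanosensitive channels tested, 2 were higher and 6 lower with all selected nuclei, and 3 and 4 in neuron-like clusters. Over all genes tested the shares were 10.7% higher and 14.4% lower, and 4.33% and 10.3% in neuron-like clusters, so the 2 of 15 lay near the share of all genes. Piezo2, the stretch-gated channel of baroreceptors and lung stretch afferents, had 199, 309 and 553 CPM against 190.2, 331 and 477, and the pools overlapped. Its log2 fold change was -0.08 ± 0.09 (edgeR adjusted p = 0.587), and 0.31 ± 0.09 in neuron-like clusters (adjusted p = 0.00736). Within the interquartile depth it was -0.15 (adjusted p = 0.471). It was called lower against neurons with partner genes and no Agtr1a UMI (-0.72, edgeR adjusted p = 6.21e-09) and when the Agtr1a-Ntrk3 cluster was left out of both populations (-0.64, adjusted p = 2.11e-06). Kcnk10, the TREK-2 channel, averaged 328 ± 109 against 193 ± 17.6 CPM and Asic2, an acid-sensing channel, 4771 ± 712 against 2742 ± 337. Without the Agtr1a-Ntrk3 cluster Kcnk10 was called lower, with a log2 fold change of -0.41 (edgeR adjusted p = 0.0109), against 0.56 with it. Asic2 was higher in 12 of 12 pools, with a log2 fold change of 0.63 ± 0.07. Tmem63c, Tmem150c, Kcnk4 and Asic1 were lower in both fits, Kcnk4, the TRAAK channel, by 1.37 ± 0.26.

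Besides Ntrk3, which the rule used, 6 receptors of neurotrophins and glial cell line-derived factors were tested, and 3 were lower (14.4% of all genes). Ntrk2, or TrkB, had 437, 547 and 842 CPM against 874, 1119.5 and 1189, without overlap, and fell by 1.03 ± 0.07 (log2, edgeR adjusted p = 4.89e-20). Ngfr and Ret were lower by 0.54 and 0.43, and Ret was not called in neuron-like clusters.

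Glutamate receptors beside Grin2a moved both ways: of 17 tested, 6 were higher and 7 lower with all selected nuclei, and 3 and 7 in neuron-like clusters, against 10.7% and 14.4%, and 4.33% and 10.3%, of all genes tested. Grik1, the GluK1 kainate subunit, averaged 1461 ± 322 against 717 ± 144 CPM, was higher in 12 of 12 pools and rose by 0.86 ± 0.08, and by 1.46 in neuron-like clusters. Without the Agtr1a-Ntrk3 cluster it was called lower, at -0.62 (edgeR adjusted p = 1.30e-05). Grm7, a presynaptic metabotropic receptor, fell by 1.12 ± 0.08. Grid1, a delta receptor, turned from 0.47 to -1.65 in neuron-like clusters. Of 14 calcium channel subunits, 2 were higher (Cacna1d, the Cav1.3 channel, 0.46 ± 0.08, and Cacna1i, the Cav3.3 channel, 1.44 ± 0.27) and 9 lower, among them Cacna1e, Cav2.3, by 1.14 ± 0.10. In neuron-like clusters 2 were higher and 7 lower. Of 18 potassium and HCN channels, 3 were higher and 9 lower, and 4 and 5 in neuron-like clusters; the 3 of 18 lay near the share of all genes that were higher, 10.7%. Kcnt2, a sodium-activated potassium channel, averaged 445 ± 126 against 213 ± 11.2 CPM, and Kcnq3 of the M-current 616 ± 207 against 1174 ± 181. Without the Agtr1a-Ntrk3 cluster Cacna1d (0.15, edgeR adjusted p = 0.389), Cacna1i (0.64, adjusted p = 0.282) and Kcnt2 (-0.11, adjusted p = 0.579) were not called.

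Among 18 genes of vagal afferent subtypes tested, 3 were higher and 12 lower with all selected nuclei, and 3 and 8 in neuron-like clusters, against 10.7% and 14.4%, and 4.33% and 10.3%, of all genes tested. Beside Glp1r, Htr3a, the serotonin-gated channel, averaged 188 ± 45.7 against 114 ± 21.6 CPM and was higher in 12 of 12 pools, and Cckar, the cholecystokinin A receptor, averaged 46.8 ± 23.3 against 29.3 ± 9.18. Within the interquartile depth neither Htr3a (edgeR adjusted p = 0.323) nor Cckar (adjusted p = 0.0518) was called, and neither was without the Agtr1a-Ntrk3 cluster, at -0.25 (edgeR adjusted p = 0.219) and 0.41 (adjusted p = 0.173). Trpa1, Cartpt, Lepr and Crhr2 were lower in both fits, and Gpr65 with all selected nuclei. Npy2r was at 8.94 ± 6.21 against 4.86 ± 1.26 CPM and was not called. P2rx2, which marks nodose rather than jugular neurons, had 116, 141 and 228 CPM against 52.6, 84.6 and 125, with overlapping pools, and rose by 0.67 ± 0.10, a call lost without the Agtr1a-Ntrk3 cluster (0.29, edgeR adjusted p = 0.113). Prdm12, of jugular neurons, had 6 UMIs in all selected nuclei and averaged 2.6 ± 3.65 against 12.4 ± 8.95 CPM. Extracellular matrix genes beside Hmcn1 depended on the nuclei taken: 8 of 15 were higher with all selected nuclei (10.7% of all genes) and 0 of 15 in neuron-like clusters, where 6 were lower (10.3% of all genes). Lama2, a laminin chain, turned from 1.57 to -0.44.

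The study's design compares left with right ganglia and males with females. Over the selected nuclei of the 12 pools, 3989 genes passed the filter, and 0 (0.0%) were called between right and left (edgeR; 210 had an unadjusted p under 0.05, and DESeq2 called 0). The genes with the smallest p were Cyyr1 and Sparc, higher on the right, and Zfp385d and Bsn, lower. Cyyr1 had a lowest, median and highest of 6.53, 32.4 and 62.3 CPM in the 6 left and 41.5, 72.4 and 164 in the 6 right pools, which overlapped (log2 1.52 ± 0.34, edgeR adjusted p = 0.317). Bsn, of the presynaptic active zone, had 236 to 282 CPM in left and 133 to 218 in right pools, which did not overlap (adjusted p = 0.819). Sparc, a glial and matrix gene, averaged 219 ± 54.4 and 408 ± 182 CPM (SD, n = 6 pools a side). Calls depended on single pools: without FR3 there were 16, without MR3 3 (among them Sparc and Plekha4, higher on the right) and without FL2 2 (Zfp385d and Dcc, lower on the right), genes named after their values were seen. The 6 myelinating Schwann markers summed to 384 to 779 CPM over the selected nuclei of left pools and 503 to 1433 of right pools, and the 6 satellite glia markers to 307 to 678 and 203 to 1032 CPM. Their part in the side comparison was not tested. A test of whether the side difference was another in the selected than in other neuron-like nuclei called 0 of 12120 genes (0.0%; 553 at an unadjusted p under 0.05, and 0 by DESeq2). Leaving out 1 pool gave 6 calls without FL2, 3 without FL3, 2 without FR3 and 1 each without FR1, FR2, MR2 and MR3.

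Between female-labelled and male-labelled pools 0 of 3989 genes (0.0%) were called (edgeR; 177 at an unadjusted p under 0.05, and 0 by DESeq2). Cntnap5a and Tspan18 were nearest to a call among those higher in female-labelled pools, Ppm1h and Cyyr1 among those lower. Tspan18, a tetraspanin, had 57.9 to 102 CPM in pools labelled male, all below the 105 to 176 of those labelled female (log2 0.75 ± 0.22, edgeR adjusted p = 0.999). Ppm1h, a protein phosphatase, had an adjusted p of 0.674. Without ML1 and FL1 none of the 4 was called: edgeR adjusted p was 0.924 for Cntnap5a (log2 0.68), 0.461 for Tspan18 (0.96), 0.192 for Ppm1h (-0.75) and 0.612 for Cyyr1 (-1.19). Without ML1 and FL1, the pools whose Y-linked counts went against their labels, 2 genes were called, both lower in female-labelled pools: Ddx3 and ENSRNOG00000060617, named after their values were seen. Without MR1 there were 2 (Mt-cyb and Mt-atp6, of mitochondrial RNA, higher in female-labelled pools) and without FL1 1 (ENSRNOG00000060617, lower). Runx2 was not called for either factor and its groups overlapped. It averaged 91.5 ± 43.5 CPM in pools labelled male, 108 ± 55.9 in those labelled female, and 103 ± 50.5 in left and 96.2 ± 51.1 in right pools (SD, n = 6). Without ML1 and FL1 it averaged 89.3 ± 48.3 and 111 ± 62 CPM by labelled sex (SD, n = 5; log2 0.21, edgeR adjusted p = 1.0). Agtr1a itself, fixed by the rule, averaged 206 ± 27.9 CPM in left and 232 ± 52.7 in right pools.

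The 236 selected nuclei of neuron-like clusters were next counted as a share of all neuron-like nuclei of their pool. It had a lowest, median and highest of 0.59%, 0.836% and 1.12% in the 6 left and 0.728%, 0.961% and 1.51% in the 6 right pools, which overlapped. The means were 0.862% ± 0.207 and 0.984% ± 0.286 (SD, n = 6), a difference within the spread between pools (exact permutation test, two-sided, 400 relabellings, p = 0.46). Pools labelled male averaged 0.886% ± 0.185 and female-labelled 0.96% ± 0.31 (exact permutation test, p = 0.67). Without ML1 and FL1 they averaged 0.851% ± 0.183 and 0.929% ± 0.336 (exact permutation test, p = 0.7). Both differences changed sign when nuclei were thinned to 1500 UMIs: 0.467% on the left and 0.441% on the right (p = 0.74, exact permutation test), 0.486% in pools labelled male and 0.422% in those labelled female (p = 0.425, exact permutation test). The pool FR3 had the highest share both as counted, at 1.51% (51 of 3377), and thinned, at 0.681%. After thinning 141 nuclei met the rule, of which 126 had met it before, and 4246 neuron-like nuclei were shallower than 1500 UMIs and left out, 1493 of left and 2753 of right pools, 2671 of male-labelled and 1575 of female-labelled pools. The Agtr1a-Ntrk3 cluster as a whole, which does not depend on an Agtr1a UMI, made up 2.12% ± 0.328 of neuron-like nuclei in left and 2.46% ± 0.617 in right pools, a description with no test.

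**Figure D5:**
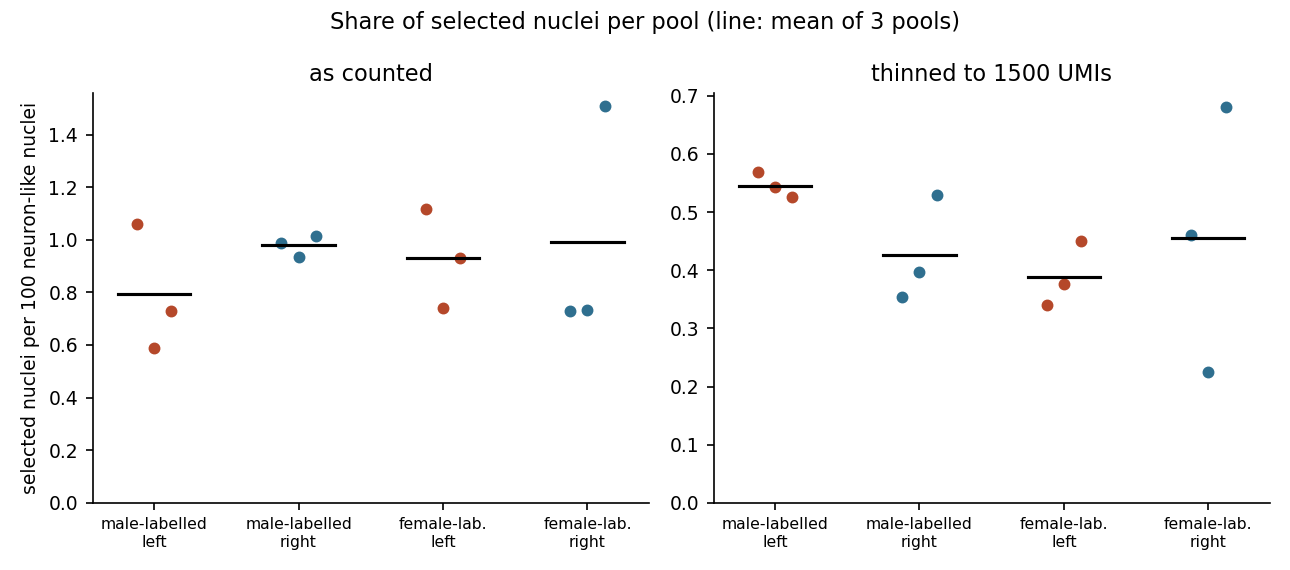
Selected nuclei of neuron-like clusters per 100 neuron-like nuclei (y axis) in the 12 pools by labelled sex and side (x axis), as counted and after thinning to 1500 UMIs; lines are means of 3 pools. The point at the top of each panel is FR3, at 1.51 as counted and 0.681 thinned.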

How the data were processed

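The members, gene lists and marker lists were chosen with earlier results of these data known. The authors fixed and barcoded nuclei with Evercode kits, per the labels' protocols, and deposited raw UMI counts per nucleus and gene with no normalisation. The submitters' processing notes name the build mRatBN7.2, R 4.3.2 and Seurat 4.1.3; neither the aligner nor the cell filter is named there. All 36741 nuclei and 30560 genes (139965360 UMIs) were read, and 0 members fell below 300 genes. Pool, sex and side were read off each nucleus's pool name. The deposited samples are 8 sublibraries that each mix the pools, and they were not compared.

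Nuclei were clustered with scanpy 1.11.5 (3000 variable genes without the 7 rule genes, 30 components, 20 neighbours, Leiden algorithm, igraph 0.11.9) at resolution 2 for classes and 1 for neurons. A class needed 3 markers at 2-fold in 10% of nuclei, and neurons 3 markers at 1.5-fold; the 1.5-fold limit, the class resolution and the move of 7 neuron clusters led by other markers to the unnamed nuclei were settled after the clusters were seen. No doublet caller was run, and nuclei with neuron and glia markers together remain among the members; leaving out the 5% deepest nuclei was an alternative.

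UMI counts were summed per pool and tested with edgeR 4.0.16 in R 4.3.3 (quasi-likelihood F test, TMM, filterByExpr, Benjamini-Hochberg adjustment, called under 0.05). DESeq2 1.42.0 was an alternative. Members against other neurons had the pool as block; side and sex had additive terms without one. Left and right pools of a sex share numbers, and these fits did not pair them by number. Correlations of their deviations were -0.096 to 0.045, which cannot settle whether pools of a number came from the same rats. CPM are plain shares of the summed UMIs. Named genes were the 14 largest called increases and 10 largest called decreases with a mean of at least 20 CPM, of 2289 called genes at that level, 161 without a symbol of their own; for side and sex the 2 smallest p in each direction. Symbols of 17161 of the 30560 entries matched the RefSeq gene table. Fits were tested on simulated counts. Some genes are not reported here.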

Additional observations from a re-analysis of the deposited data

Results flagged for a closer look

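Of 24 groups of 6 pools examined, 2 held a pool set far from the others, where chance gives about 1 in 20. The share of selected nuclei among neuron-like nuclei was 1.51% in FR3, the highest of the right pools, the other 5 lying between 0.728% and 1.01%. Among the female-labelled pools, Cntnap5a, a contactin-associated protein gene, was at 554.9 CPM in the selected nuclei of FL3, against a group median of 320.6 CPM.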

How the results depend on the processing

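The 2805 genes called between the selected and other neuron-like nuclei became 1607 with selected nuclei of neuron-like clusters only and 1565 within the interquartile depth; the other 21 alternatives, including 1 added after seeing the data (the Agtr1a-Ntrk3 cluster left out of both populations, 2489), gave 2213 to 3082, and leaving out a pool 2476 to 2729. Without the replicate block of pools it was 2885. Of the named genes, Tyrp1, Sparc, Ttyh1, Efemp1, Fbln2 and Sfrp1 changed sign in neuron-like clusters, to -0.45, -0.21, -0.69, -0.011, -0.11 and -2.05. Only Sfrp1 was called lower there (edgeR adjusted p = 0.00227), on 5 UMIs, and the others were not called. Over the 40 named genes 898 of 916 values kept their direction and their side of the threshold, and 28 genes did so under every alternative they had a value in. The 0 calls between sides became 14 without the low-count filter and 0 to 16 when a pool was left out. The 0 calls between labelled sexes became 6 without the filter, 2 without ML1 and FL1, and 0 to 2 when a pool was left out (2 without MR1, 1 without FL1). For the side difference between populations, 0 became 2 with at least 2 partner genes (Col6a5, Tmem132d), 3 without the 5% deepest nuclei (among them Robo1 and Tafa1), 3 within the interquartile depth (among them Mlip and ENSRNOG00000066348) and 0 to 6 when a pool was left out. With a replicate block of sex and number, 0 genes were called between sides, and 1 of 6 left pools correlated best with the right pool of its own number. The difference in share, right minus left, was -0.026 percentage points when thinned, and 0.0176 to 0.174 when a pool was left out. Female minus male-labelled was -0.064 thinned, and -0.0366 (without FR3) to 0.12 when a pool was left out. The share in the Agtr1a-Ntrk3 cluster of 41.2% was 64.9% with at least 2 partner genes and 60.2% with 2 or more Agtr1a UMIs, and 40.4 to 42.5% under the other settings. The cause of these shifts was not tested. Depth limits the selection itself, since most members hold 1 Agtr1a UMI.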
